A study of Rattus norvegicus with 12 samples.

Results

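The constitutive proteasome subunits were followed through RNA-seq of the prefrontal cortex of 12 rat offspring. They were the rows of the deposited gene table whose name is Psma, Psmb, Psmc or Psmd followed by a number, without the 3 inducible subunits Psmb8, Psmb9 and Psmb10. That rule found 33 of 22431 genes, with 8 subunits of the 20S alpha ring, 7 of the 20S beta ring, 6 ATPases of the 19S cap and 12 further subunits of the 19S cap. The rule used names and no measured value. All animals were labelled wild type (WT), and the labels give neither strain, sex nor age in days, and place the animals in early adolescence. The first group of 4 had postnatal oxycodone exposure (PNO), the second group of 4 had in utero oxycodone exposure (IUO), and the third group of 4 was the saline control. Oxycodone, an opioid agonist, was given by oral gavage at 15 mg/kg, either before pregnancy or after it up to postnatal day 21, in the wording of a label that all 3 groups carry. The 4 animals of a group were the offspring of 2 dams, 2 animals from each, and which animals were littermates is not labelled. Littermates are not independent, so the p values given here may be too small. In bulk tissue RNA, fewer cells of a type and less RNA per cell cannot be told apart.

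The proteasome degrades proteins that carry ubiquitin chains. Its 20S core is a barrel of stacked rings: outer alpha rings hold a gated pore, and inner beta rings hold the peptide-cutting sites. The 19S cap binds the ubiquitin chain, cuts it off, unfolds the substrate with a ring of ATPases and feeds it through the pore. In neurons proteasomes work in dendrites and at synapses, where protein turnover takes part in synaptic plasticity. The subunits are needed in fixed proportions, and in mammals their genes share a transcriptional activator, NRF1 (gene Nfe2l1), which binds antioxidant response elements when proteasome activity is low.

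Promoter sequence was read for the 29 members that matched the RefSeq promoter table of build GRCr8, which covers 250 bases before to 50 bases after each start. Psma7, Psmd6, Psmd12 and Psmd14 had no match. The antioxidant response element core TGACNNNGC stood on either strand in 6 of the 29 member promoters (20.7%). It stood in 12.1% of all 33469 promoters of the table, or 12.5% of those of protein-coding genes. The ETS core CCGGAAG stood in 11 members (37.9%) and in 8.75% of all promoters, or 10.7% of the 21851 promoters of protein-coding genes. The SP core GGGCGG stood in 21 members (72.4%) and in 33.1% of all promoters, or 41.8% of the protein-coding ones. The CCAAT box stood in 14 members (48.3%, against 37.5% of all promoters) and the NRF-1 site, bound by a factor unrelated to Nfe2l1, in 5 (17.2%, against 4.25%). Both strands were searched for each motif, and overlapping matches counted for each. The 6 members with the antioxidant response element core were Psma3, Psmb2, Psmb5, Psmb6, Psmd1 and Psmd3. The 200 bases before the start are printed 5′ to 3′ on the gene's strand for the catalytic subunits Psmb5, Psmb6 and Psmb7 and the alpha subunit Psma3. They are examples of windows with a match to the core (Psma3, Psmb5 and Psmb6) and without one (Psmb7). They lie at chr6:95219549-95219748 (Psma3, plus strand), chr15:32047380-32047579 (Psmb5, minus strand), chr10:55737688-55737887 (Psmb6, plus strand) and chr3:42827471-42827670 (Psmb7, minus strand) of GRCr8. Capitals mark the antioxidant response element core, on either strand, in the first 3 and the ETS core in Psmb7.
Psma3: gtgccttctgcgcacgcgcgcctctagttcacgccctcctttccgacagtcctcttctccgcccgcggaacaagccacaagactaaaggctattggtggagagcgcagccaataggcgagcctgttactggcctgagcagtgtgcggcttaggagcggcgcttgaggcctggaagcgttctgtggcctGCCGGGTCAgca
Psmb5: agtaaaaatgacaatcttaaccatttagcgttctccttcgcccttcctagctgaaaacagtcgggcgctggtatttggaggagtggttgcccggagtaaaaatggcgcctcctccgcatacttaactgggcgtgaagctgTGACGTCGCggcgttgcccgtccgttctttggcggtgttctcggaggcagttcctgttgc
Psmb6: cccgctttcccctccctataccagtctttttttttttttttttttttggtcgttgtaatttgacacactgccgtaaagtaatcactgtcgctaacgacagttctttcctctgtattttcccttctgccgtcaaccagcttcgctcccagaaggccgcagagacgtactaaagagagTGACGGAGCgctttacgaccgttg
Psmb7: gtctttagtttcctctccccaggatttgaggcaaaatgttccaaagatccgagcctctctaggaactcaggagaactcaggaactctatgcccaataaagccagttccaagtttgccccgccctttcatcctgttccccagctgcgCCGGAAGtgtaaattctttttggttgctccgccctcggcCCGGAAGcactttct
These matches describe the letters in the windows and do not show that a factor binds there.

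All but 1 of the members were well measured in the cortex. Levels between genes are compared in FPKM, fragments scaled to transcript length and library size by the authors. Of the 33 members, 32 had a mean of at least 0.5 FPKM over the 12 libraries and entered the tests. The exception was Psma8, the alpha subunit of the testis proteasome, with 20 counts in all libraries together: 4 in IUO 1, 9 in saline 2, 7 in saline 4 and 0 in the other 9. The tested members had 1154 or more counts in every library. Their median level was 61.4 FPKM, against 6.16 FPKM over the 14170 genes tested. The members differed 12.4-fold in transcript level. Psmb7, the trypsin-like catalytic subunit, was the highest, with 126 ± 8.32 FPKM in PNO, 138 ± 27.6 FPKM in IUO and 144 ± 6.63 FPKM in saline (SD, n = 4 each, as for every mean here). Psmc3, a cap ATPase, followed with 102 ± 6.95 FPKM in PNO, 110 ± 19.6 FPKM in IUO and 108 ± 5.47 FPKM in saline. The lowest was Psmd5, which in mammals is a chaperone of cap assembly and leaves the finished particle, with 10.6 ± 1.53 FPKM in PNO, 10.9 ± 0.399 FPKM in IUO and 11.5 ± 2.13 FPKM in saline. Next lowest was the ATPase Psmc6, with 14.7 ± 0.926 FPKM in PNO, 15.4 ± 0.698 FPKM in IUO and 16.1 ± 0.75 FPKM in saline. Psmc3 and Psmc6 sit in the same ring in equal number, and their mean FPKM differed 6.88-fold. FPKM divides by length, and the lengths implied by counts and FPKM were 1899 bases (Psmc3) and 4636 bases (Psmc6). In counts scaled to library size alone (CPM), the saline means were 208 ± 15 (Psmc3) and 75.7 ± 2.01 (Psmc6). The median over members was 38.3 FPKM in the alpha ring, 72.2 FPKM in the beta ring, 69.9 FPKM among the ATPases and 50.2 FPKM among the other cap subunits.

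**Figure D1:**
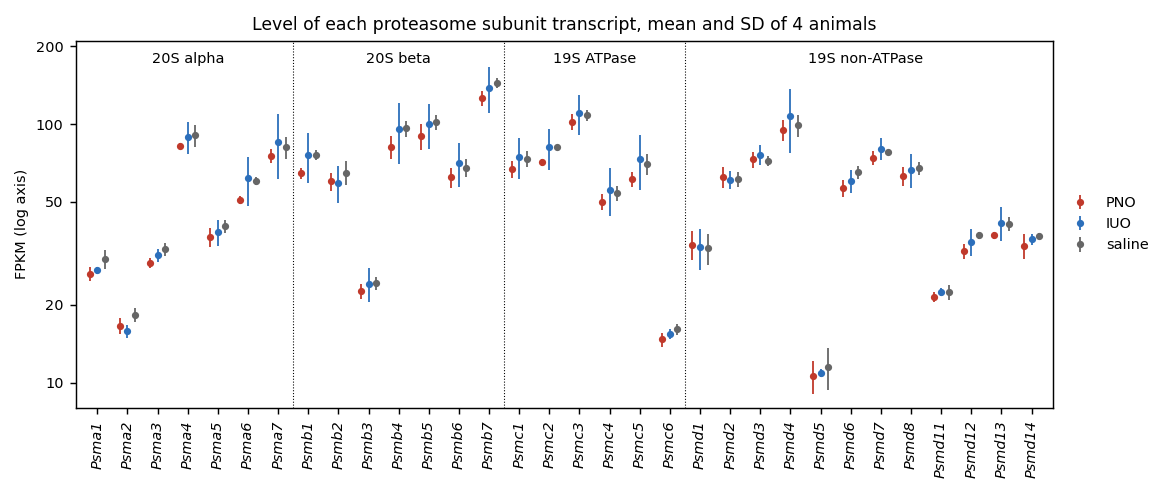
Level of the 32 tested subunit transcripts in FPKM (log axis), as the mean (point) and SD (bar) of 4 animals in PNO, IUO and saline, ordered by class. Levels run from 11 FPKM (Psmd5) to 136 FPKM (Psmb7), and the IUO bars are the widest in most of the beta ring and ATPase members.

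Some rows can share reads. Of the members, 9 overlap another gene row of the table (among them Psmb2 with Tfap2e, Psmb7 with Nek6, Psmc3 with Slc39a13, Psmd1 with Htr2b and Psmd6 with Atxn7). The libraries were stranded, and whether the counting used strand is not given in the sources used here. A row described as a pseudogene of Psma6 had 234 to 476 counts and a row described as Psmb6-like 45 to 98 counts, and 2 rows described as similar to Psmb3 had 0 to 29 and 0 to 4 counts, so values of Psma6, Psmb6 and Psmb3 are less certain. Gene positions are those of the deposited table, whose genome build is not given in the sources used here. There the catalytic genes lie on chromosome 15, 28072781 to 28077440 (Psmb5), chromosome 10, 55239241 to 55241586 (Psmb6), and chromosome 3, 22354698 to 22417937 (Psmb7).

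The libraries differed in ways that run across the groups. Total counts ran from 49227533 (IUO 2) to 60672246 (saline 1). Markers of cortical excitatory neurons were present in every library, with a mean log2 CPM (counts scaled to library size) of 6.22 to 6.61 over 8 of 8 markers. Striatal markers (11 of 13 tested) averaged 6.64 log2 CPM in PNO 2, while IUO 1 had 4.99, IUO 2 had 6.13 and saline 2 had 4.80, against 3.63 to 3.71 elsewhere. Olfactory bulb markers (9 of 9 tested) averaged 4.20 log2 CPM in PNO 1, 4.07 in PNO 3 and 4.45 in PNO 4, while IUO 3 had 4.65, against 1.77 to 2.19 elsewhere, the 4 saline libraries included. The bulb or striatal markers were thus raised in all 4 PNO libraries, 3 of 4 IUO libraries and 1 of 4 saline libraries, and their part in the subunit values was not tested beyond the fits given with the comparisons. IUO 4 stood apart from the other 11 libraries: it held the highest value of 21.6% of all tested genes.

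Across the subunits PNO and saline libraries were tight and IUO libraries were not. The mean log2 CPM of the 32 subunits was 6.66, 6.52, 6.63 and 6.55 in PNO 1 to 4, 6.59, 6.54, 6.70 and 6.96 in IUO 1 to 4, and 6.71, 6.78, 6.74 and 6.76 in saline 1 to 4. All 4 PNO libraries and IUO 1, 2 and 3 lay below the lowest saline library, and IUO 4 lay above the highest. The median coefficient of variation of the members' CPM was 6.19% in PNO, 15.7% in IUO and 6.23% in saline, and over all tested genes it was 11.5% in PNO, 15.6% in IUO and 12% in saline. Of the 32 members 27, 30, 28 and 32 lay below the saline mean in PNO 1 to 4, and 30, 32, 21 and 5 did so in IUO 1 to 4. In saline 1 to 4 themselves 20, 13, 16 and 14 members did so.

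**Figure D2:**
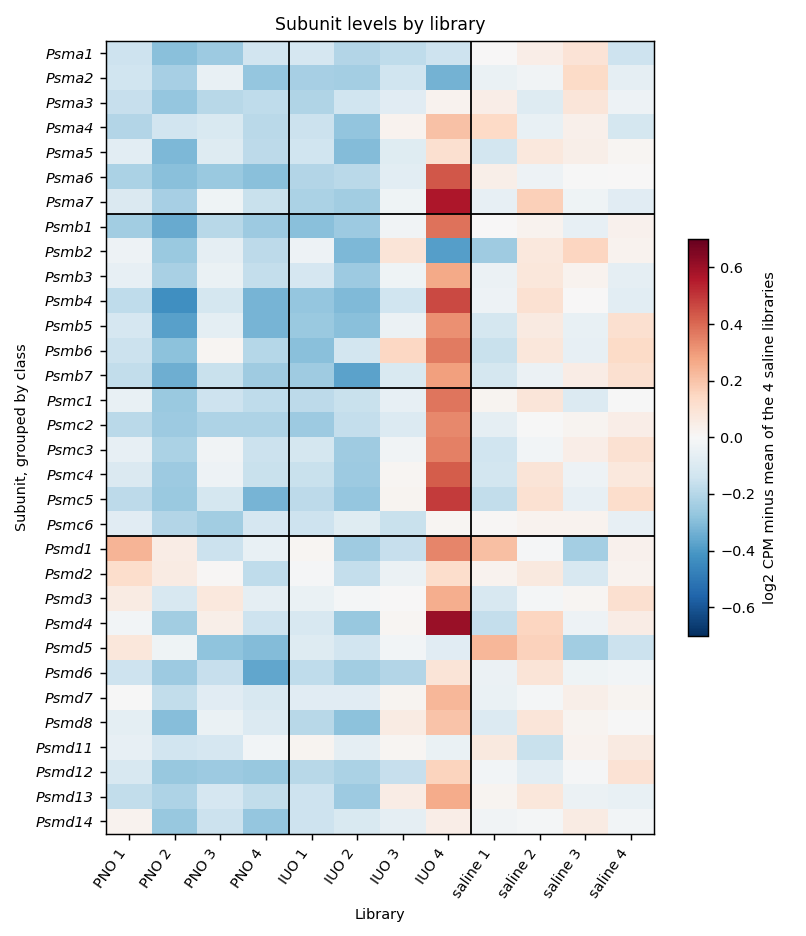
Each subunit (row) in each library (column), as log2 CPM minus the mean of the 4 saline libraries, blue for lower and red for higher, with lines between groups and classes. PNO and IUO 1 to 3 are mostly blue, while IUO 4 is red in most rows and blue in Psma2 and Psmb2.

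In PNO offspring, proteasome subunit transcripts were on the low side of saline in every class, by small amounts that no test called. The log2 fold change of PNO over saline was negative in 30 of 32 members, against 48.8% of all genes tested, with a median of -0.16, against 0.0068 over all genes. The edgeR quasi-likelihood test called 0 members at an adjusted p under 0.05, where it called 0 genes of the table (0%), and the smallest adjusted p of a member was 0.373. At an unadjusted p under 0.05 there were 7 members lower (4.22% of all genes were) and 0 higher (6.82%). In 10 members all PNO libraries lay below all saline libraries (4.66% of all genes), and in 0 members above (5.17%). The 95% intervals of the members' fold changes together ran from -0.58 to 0.31 on the log2 scale.

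The alpha ring had negative values in 7 of 7 tested members, with a median of -0.17. Psma6 measured 75.5, 72.0, 73.7 and 72.1 CPM in PNO 1 to 4, against 90.7, 85.9, 87.9 and 88.3 CPM in saline 1 to 4. The groups did not overlap, and each kept within a few CPM, with a log2 fold change of -0.27 (SE 0.12, adjusted p = 0.446). Psma3 measured 80.0, 74.0, 78.1 and 79.1 CPM in PNO, against 92.2, 83.8, 94.7 and 87.0 CPM in saline. Every PNO library was again below every saline library, with a log2 fold change of -0.20 (SE 0.073, adjusted p = 0.392). Psma1 had the smallest p of the members, with 79.9, 72.1, 73.9 and 80.5 CPM in PNO and 88.5, 91.1, 94.4 and 79.7 CPM in saline, a log2 fold change of -0.21 (SE 0.073, adjusted p = 0.373). Here saline 4 lay among the PNO values. Psma2 measured 64.2, 60.0, 68.1 and 58.5 CPM in PNO and 68.3, 69.4, 77.5 and 67.6 CPM in saline (log2 fold change -0.17, SE 0.078, adjusted p = 0.446), with PNO 3 inside the saline range. Psma4, whose yeast counterpart carries the tail that closes the pore, measured 103 ± 3.16 CPM in PNO and 115 ± 9 CPM in saline, and these overlapped.

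In the beta ring 7 of 7 members had negative values, with the lowest class median, -0.22, in the main fit. With a trend on gene length removed, the catalytic members lay nearer to 0, as given with transcript length below. Psmb5, the chymotrypsin-like subunit and main target of proteasome inhibitor drugs, measured 94.7, 78.8, 97.8 and 81.9 CPM in PNO and 94.3, 107, 98.9 and 111 CPM in saline. PNO 1 and 3 lay within the saline range and PNO 2 and 4 below it (log2 fold change -0.22, SE 0.13, adjusted p = 0.547). Psmb6, the caspase-like subunit, measured 54.3, 49.4, 60.9 and 52.4 CPM in PNO and 54.1, 63.6, 58.0 and 66.0 CPM in saline (log2 fold change -0.155, SE 0.13, adjusted p = 0.662), also with overlap. Psmb7 measured 164, 146, 166 and 156 CPM in PNO and 170, 180, 192 and 200 CPM in saline, with no overlap (log2 fold change -0.23, SE 0.12, adjusted p = 0.51). The non-catalytic subunit Psmb1 measured 124, 115, 128 and 123 CPM in PNO, against 147, 149, 141 and 150 CPM in saline. Its groups stood well apart, with a log2 fold change of -0.26 (SE 0.12, adjusted p = 0.457). Psmb4, also non-catalytic, was the third beta member without overlap, at 100 ± 9.51 CPM in PNO and 120 ± 6.26 CPM in saline. Psmb5 and Psmb6 hold the antioxidant response element core in the windows printed above and Psmb7 does not.

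The ATPases, which unfold the substrate, had negative values in 6 of 6 members with a median of -0.16. Psmc6 measured 71.7, 65.8, 64.0 and 69.7 CPM in PNO and 76.3, 76.9, 77.0 and 72.8 CPM in saline, without overlap (log2 fold change -0.16, SE 0.069, adjusted p = 0.435). Psmc2 was the other ATPase without overlap, at 114 ± 2.25 CPM in PNO and 133 ± 4.40 CPM in saline. Psmc3, the most abundant ATPase transcript, measured 200, 178, 204 and 187 CPM in PNO and 189, 205, 215 and 224 CPM in saline, with overlap (log2 fold change -0.115, SE 0.11, adjusted p = 0.718).

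The other cap subunits were more mixed, with negative values in 10 of 12 and a median of -0.11. Psmd6 and Psmd12, scaffold subunits of the cap's lid, did not overlap between the groups. Psmd6 measured 106, 98.3, 105 and 91.1 CPM in PNO and 114, 125, 115 and 116 CPM in saline (log2 fold change -0.23, SE 0.086, adjusted p = 0.404). Psmd12 measured 94.8, 85.2, 85.8 and 85.2 CPM in PNO and 101, 97.3, 102 and 110 CPM in saline (log2 fold change -0.23, SE 0.089, adjusted p = 0.414), and PNO 1 stood above the other 3 PNO libraries. A lid subunit, Psmd13, was the third without overlap, at 106 ± 2.91 CPM in PNO and 120 ± 4.70 CPM in saline. Psmd14, the deubiquitinase that removes the ubiquitin chain, measured 62.4, 51.1, 55.4 and 50.9 CPM in PNO and 60.4, 60.8, 63.9 and 60.5 CPM in saline (log2 fold change -0.16, SE 0.081, adjusted p = 0.486). Only PNO 1 kept its groups from separating. The ubiquitin receptor Psmd4 measured 145, 124, 151 and 133 CPM in PNO and 131, 163, 143 and 152 CPM in saline (log2 fold change -0.091, SE 0.16, adjusted p = 0.849). The large scaffolds Psmd1 and Psmd2 were the 2 members with positive values, both near 0. Psmd1 measured 164, 144, 125 and 134 CPM in PNO and 161, 138, 118 and 142 CPM in saline (log2 fold change 0.018, SE 0.13, adjusted p = 0.972). Psmd2 measured 214, 205, 198 and 174 CPM in PNO and 200, 206, 182 and 200 CPM in saline (log2 fold change 0.0031, SE 0.085, adjusted p = 0.994). Psmd5, the assembly chaperone, measured 27.3, 25.3, 21.2 and 20.9 CPM in PNO and 30.3, 28.9, 21.8 and 23.2 CPM in saline, with overlap (log2 fold change -0.14, SE 0.13, adjusted p = 0.69).

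Marker means of other cell types moved with this comparison. The mean log2 CPM of 5 tested GABAergic neuron markers (of 6 listed) was 6.13 to 6.38 in PNO and 5.77 to 6.11 in saline, without overlap. That of 6 of 6 microglial markers was 4.73 to 4.84 in PNO and 4.88 to 5.30 in saline, also without overlap. Singly, only C1qa did not overlap, at 41.7, 35.5, 41.6 and 31.2 CPM in PNO and 65.1, 57.4, 47.4 and 57.7 CPM in saline. Tmem119, P2ry12, Cx3cr1, Aif1 and Csf1r overlapped. Csf1r measured 101, 98.8, 99.4 and 93.4 CPM in PNO and 101, 89.5, 88.8 and 109 CPM in saline. The GABA synthesis gene Gad1 measured 273, 230, 259 and 307 CPM in PNO and 164, 187, 176 and 201 CPM in saline. Gad2 and Slc32a1 of the same list ran higher in PNO on average, and Sst and Vip lower, all with overlap. Sst measured 174, 169, 195 and 154 CPM in PNO and 184, 230, 245 and 215 CPM in saline. Vip measured 29.4, 25.1, 33.3 and 33.2 CPM in PNO and 34.7, 30.7, 38.6 and 33.2 CPM in saline. The part of these cell types in the subunit values was not tested.

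**Figure D3:**
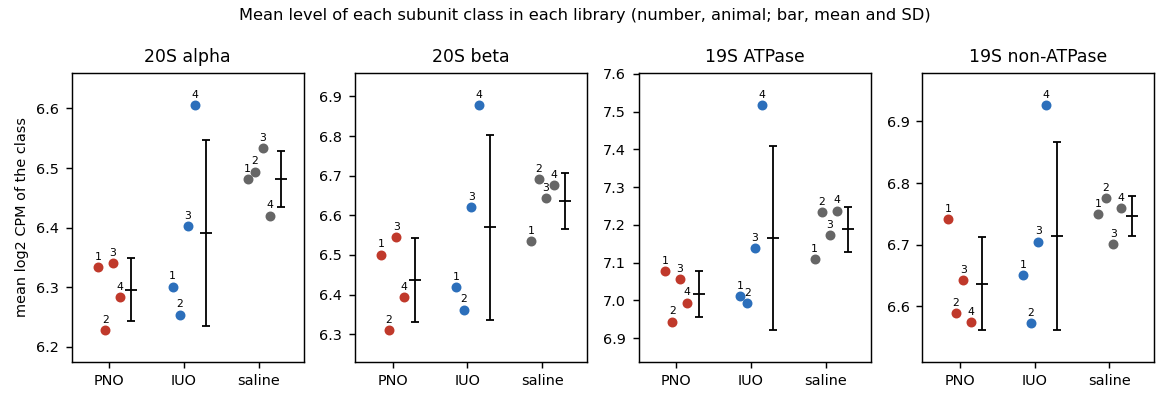
Mean log2 CPM of the tested members of each class in each library (points, numbered by animal) with the group mean and SD (bar), PNO, IUO and saline from left to right; the axes differ between classes. In the alpha ring, beta ring and ATPase classes the PNO means (6.30, 6.44 and 7.02) lie below those of saline (6.48, 6.64 and 7.19), and IUO 4 is the highest point in all 4 panels.

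The PNO values depended on how the region markers entered. With the striatal and bulb marker means as covariates the median of the members was 0.011 and 14 of 32 were negative, and the bulb markers were raised in 3 of 4 PNO and 0 of 4 saline libraries, so those markers and PNO cannot be fully told apart. When the 4 libraries of raised striatal markers were left out the median was -0.12 with 28 negative, and without the 4 with raised bulb markers, which leaves PNO 2 alone in its group, it was -0.28 with 30 negative. Leaving out IUO 4, which changes only the shared estimate of spread, put 15 members at an unadjusted p under 0.05 (6.89% of all genes were lower at that level), with 0 of the members among the 19 genes called (0.134%) and a smallest adjusted p of 0.0788 for Psma6. Other tools called genes but 0 members: DESeq2 called 119 genes (0.841%), limma with its weights per sample called 32 (0.226%) and edgeR fitted without the IUO group called 11 (0.0776%).

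In IUO offspring the subunits had no shared direction over all 4 libraries: on average IUO 4 lay above saline and the other 3 below. The comparison uses the same 4 saline libraries as the PNO comparison, so the values are not independent of it. The log2 fold change of IUO over saline was negative in 22 of 32 members (43.6% of all genes), with a median of -0.025, against 0.023 over all genes. The test called 0 members and 0 genes (0%), with a smallest adjusted p of 0.998 for a member; DESeq2 called 11 genes (0.0777%) and 0 members. At an unadjusted p under 0.05 there were 2 members lower, Psma1 and Psma2 (1.71% of all genes were), and 0 higher (2.31%). In 1 member, Psma2, all IUO libraries lay below all saline libraries (1.03% of all genes), and in 0 above (1.15%). The class medians were -0.098 in the alpha ring, -0.030 in the beta ring, 0.0053 among the ATPases and -0.022 among the other cap subunits.

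In the alpha ring IUO 4 was the highest of the 12 libraries in 4 of 7 members, and not in Psma1, Psma2 or Psma3. Psma2 measured 60.2, 59.8, 64.2 and 56.2 CPM in IUO 1 to 4 and 68.3, 69.4, 77.5 and 67.6 CPM in saline (log2 fold change -0.235, SE 0.078, adjusted p = 0.998), and IUO 4 was the lowest of all 12 libraries. Psma1 measured 81.3, 76.5, 77.9 and 79.8 CPM in IUO and 88.5, 91.1, 94.4 and 79.7 CPM in saline, with overlap through saline 4 alone (log2 fold change -0.165, SE 0.073, adjusted p = 0.998). Psma3 measured 77.3, 81.1, 84.6 and 91.0 CPM in IUO and 92.2, 83.8, 94.7 and 87.0 CPM in saline (log2 fold change -0.099, SE 0.073), and Psma5 58.3, 52.0, 60.5 and 69.4 CPM in IUO and 58.7, 67.5, 66.1 and 64.7 CPM in saline (log2 fold change -0.098, SE 0.0945). Both overlapped, with IUO 4 the highest IUO library.

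Among the catalytic subunits, which cut the substrate, IUO 4 was the highest IUO library throughout. Psmb5 measured 85.6, 83.9, 99.8 and 128 CPM in IUO and 94.3, 107, 98.9 and 111 CPM in saline (log2 fold change -0.050, SE 0.13). Psmb6 measured 49.1, 55.2, 66.7 and 77.4 CPM in IUO and 54.1, 63.6, 58.0 and 66.0 CPM in saline (log2 fold change 0.039, SE 0.13). Psmb7 measured 156, 143, 172 and 226 CPM in IUO and 170, 180, 192 and 200 CPM in saline (log2 fold change -0.090, SE 0.12). In each of these 3 IUO 4 was above every saline library, and in Psmb5 and Psmb7 IUO 1 and 2 were below every one. Psmb2, a non-catalytic beta subunit, ran the other way: it measured 58.6, 48.3, 63.8 and 46.0 CPM in IUO and 50.5, 63.1, 66.7 and 61.1 CPM in saline, with IUO 4 the lowest (log2 fold change -0.16, SE 0.12).

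In the cap the same library stood out. Psmc3 measured 191, 175, 204 and 265 CPM in IUO and 189, 205, 215 and 224 CPM in saline (log2 fold change 0.0032, SE 0.11). Psmd4 measured 136, 122, 148 and 223 CPM in IUO and 131, 163, 143 and 152 CPM in saline (log2 fold change 0.095, SE 0.16). Psmd1 measured 140, 117, 124 and 176 CPM in IUO and 161, 138, 118 and 142 CPM in saline (log2 fold change -0.0052, SE 0.13). For these 3 the IUO 4 value exceeded all saline values and the other IUO values did not. Psmd12 measured 89.7, 88.0, 91.6 and 114 CPM in IUO and 101, 97.3, 102 and 110 CPM in saline (log2 fold change -0.10, SE 0.089), and Psmd6 104, 99.1, 102 and 125 CPM in IUO and 114, 125, 115 and 116 CPM in saline (log2 fold change -0.13, SE 0.086). IUO 1 to 3 lay below every saline library in both of these lid subunits. Psmd14 measured 55.5, 57.1, 58.7 and 63.4 CPM in IUO and 60.4, 60.8, 63.9 and 60.5 CPM in saline (log2 fold change -0.066, SE 0.080), with IUO 1 to 3 again below the saline range. Psmc6 measured 68.5, 71.4, 68.1 and 76.5 CPM in IUO and 76.3, 76.9, 77.0 and 72.8 CPM in saline (log2 fold change -0.091, SE 0.069). Psmd2 and Psmd5 overlapped throughout, with 194 ± 15.8 CPM (Psmd2) and 24.4 ± 0.833 CPM (Psmd5) in IUO, against 197 ± 10.2 CPM and 26.0 ± 4.20 CPM in saline.

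IUO 4 was the highest of the 12 libraries in 23 of 32 members, where it was the highest for 21.6% of all tested genes. These were 4 of 7 alpha, 6 of 7 beta, 5 of 6 ATPase and 8 of 12 other cap subunits. It was the lowest of the 12 in 2 members, Psma2 and Psmb2, where it was the lowest for 20% of all tested genes. At the other end PNO 2, a library with raised striatal markers, was the lowest in 14 members (10.9% of all genes). Without IUO 4 the log2 fold change of IUO over saline was negative in 32 of 32 members (47.3% of all genes), with a median of -0.13 and a range of -0.24 to -0.013. There 9 members had an unadjusted p under 0.05 and were lower (3.83% of all genes), 0 members were called (0% of all genes) and the smallest adjusted p of a member was 0.463, for Psmd6. IUO 1, 2 and 3 lay below all 4 saline libraries in 8 members (4.02% of all genes): Psma2, Psma6, Psmb4, Psmc2, Psmc6, Psmd6, Psmd12 and Psmd14. Striatal markers were raised in IUO 1 and 2, and with the striatal-marker libraries left out, which leaves IUO 3 and 4, the median was 0.13 with 10 members negative. Without IUO 2 alone it was 0.031 with 12 negative, so the sign in IUO turned on which libraries were kept. With all libraries kept and limma's weights per sample, it was -0.13 with 31 negative and 0 members called.

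**Figure D4:**
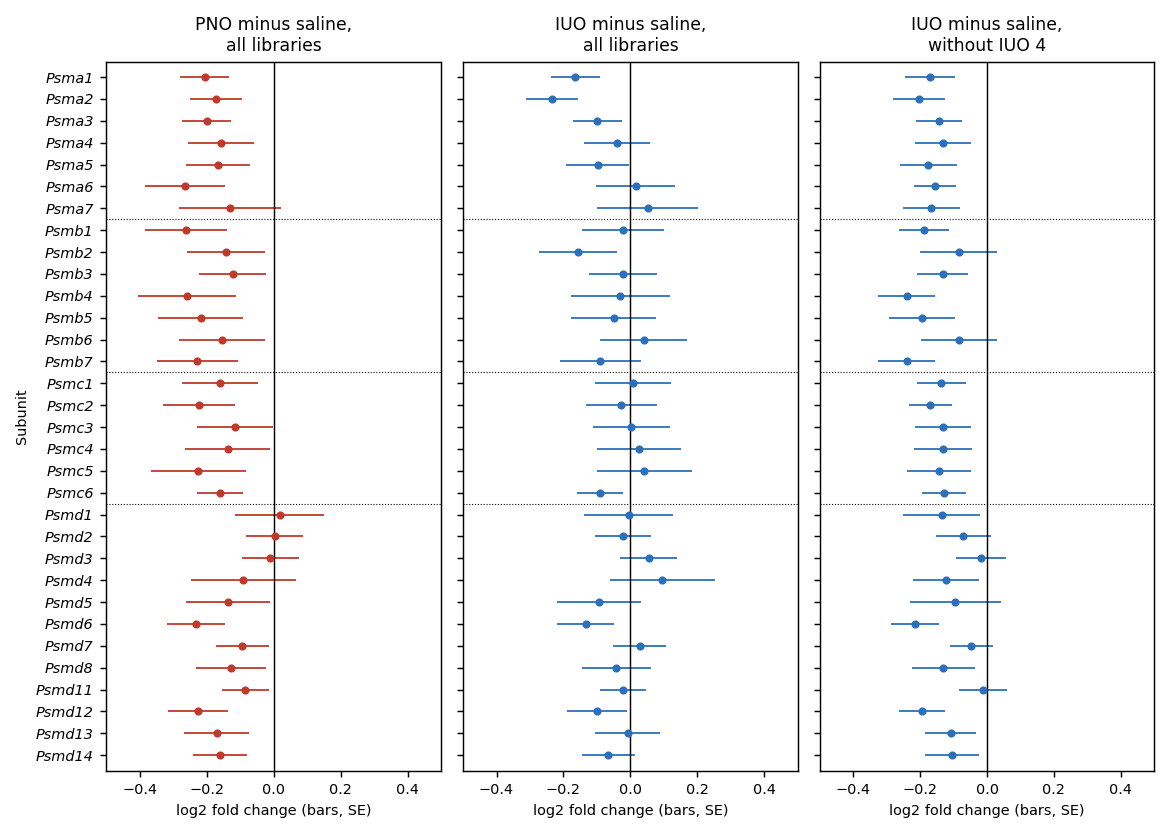
Log2 fold change (point) and SE (bar) of each subunit from the edgeR model, for PNO over saline, IUO over saline, and IUO over saline with IUO 4 left out. The PNO values lie between -0.27 and 0.018, the IUO values between -0.235 and 0.095, and without IUO 4 all 32 IUO values are below 0.

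Set against each other, IUO was on the high side of PNO. The log2 fold change of IUO over PNO was negative in 4 of 32 members (49.2% of all genes), with a median of 0.12, against 0.0036 over all genes. The test called 0 members and 0 genes (0%), with a smallest adjusted p of 0.714 for a member; DESeq2 called 8 genes (0.0565%) and 0 members. At an unadjusted p under 0.05 there was 1 member higher, Psma6 (3.67% of all genes), and 0 lower (3.06%). Psma6 was also the single member whose libraries did not overlap (1.85% of all genes were higher without overlap, and 0 members against 1.78% of all genes were lower). It measured 76.4, 77.3, 83.9 and 119 CPM in IUO and 75.5, 72.0, 73.7 and 72.1 CPM in PNO (log2 fold change 0.28, SE 0.12, adjusted p = 0.714). IUO 1 and 2 (76.4 and 77.3 CPM) lay close above PNO 1 (75.5 CPM), and IUO 4 lay far above. Psmb1 measured 120, 123, 144 and 191 CPM in IUO and 124, 115, 128 and 123 CPM in PNO (log2 fold change 0.24, SE 0.12, adjusted p = 0.714), with IUO 1 and 2 inside the PNO range. The ATPase Psmc5 measured 167, 157, 192 and 266 CPM in IUO and 167, 158, 174 and 151 CPM in PNO (log2 fold change 0.27, SE 0.14, adjusted p = 0.714). Psmc2, Psmd13, Psmb4, Psmd7 and Psmb6 followed in order of p, with log2 fold changes of 0.20, 0.16, 0.23, 0.12 and 0.19. All 5 overlapped. Of the remaining subunits named for their role, Psmb5 had a log2 fold change of 0.17 (95% interval -0.11 to 0.44), Psmb7 of 0.14 (-0.12 to 0.40), Psmd4 of 0.19 (-0.15 to 0.525), Psmd14 of 0.0945 (-0.079 to 0.27) and Psmd1 of -0.023 (-0.31 to 0.26). Psmd2 had -0.025 (-0.21 to 0.16), Psmc3 0.12 (-0.13 to 0.36), Psmc6 0.069 (-0.079 to 0.22) and Psmd5 0.044 (-0.23 to 0.315). Each of these intervals spans 0. Without IUO 4 the median of IUO over PNO was 0.025 and 11 members were negative (50.6% of all genes).

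The level of short transcripts also differed between the libraries. The members have a median length of 1900 bases, implied by their counts and FPKM, against 3111 bases for all genes tested. The mean log2 CPM deviation (each gene from its own mean over the libraries) of the shortest 25% minus the longest 25% of genes was -0.16, -0.23, 0.058 and -0.085 in PNO 1 to 4, -0.15, -0.17, 0.071 and 0.35 in IUO 1 to 4, and -0.016, 0.16, 0.045 and 0.12 in saline 1 to 4. PNO 2 was the lowest and IUO 4 the highest library on both this measure and the subunit mean. Within IUO and within saline the libraries stood in the same order on both measures. Within PNO the 2 orders differed: the subunit mean was 6.66 log2 CPM in PNO 1 and 6.63 in PNO 3. With a trend on gene length removed from each library, the median of the members was -0.10 in PNO over saline with 30 of 32 negative, -0.032 in IUO over saline with 22 negative, and 0.049 in IUO over PNO with 5 negative. The part of transcript length in the subunit values was otherwise not tested.

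**Figure D5:**
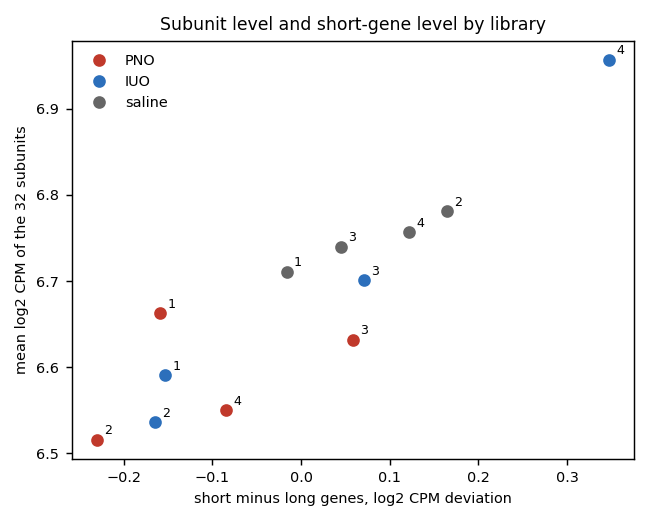
Mean log2 CPM of the 32 subunits (vertical) against the deviation of short minus long genes (horizontal, log2 CPM) in each of the 12 libraries, numbered by animal, in PNO, IUO and saline. IUO 4 lies at the upper right and PNO 2 at the lower left. Within IUO and within saline the points rise from left to right. Among the PNO points, PNO 1 is the highest and PNO 3 lies furthest right.

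Genes that work with the particle were read beside the subunits, in the main fit only. Over all genes tested, 0% were called in each comparison. Negative values were held by 48.8% in PNO over saline, 43.6% in IUO over saline and 49.2% in IUO over PNO. In PNO over saline 4.66% of all genes were lower without overlap. The limits given above for region markers, transcript length and single libraries were not examined for these lists. Of the 5 assembly chaperones in the table, 0 were called in PNO over saline, 5 had negative values, and the median was -0.34. Psmg1 and Psmg2, which form a dimer that starts the alpha ring, did not overlap between the groups. Psmg1 measured 27.8, 24.3, 31.0 and 24.8 CPM in PNO and 32.5, 33.9, 33.7 and 34.1 CPM in saline (log2 fold change -0.315, SE 0.12, adjusted p = 0.411). Psmg2 measured 10.4, 9.23, 8.94 and 9.55 CPM in PNO and 11.7, 13.5, 11.9 and 11.2 CPM in saline (log2 fold change -0.34, SE 0.125, adjusted p = 0.404). Pomp, which guides assembly of the beta ring, measured 55.5, 53.5, 61.7 and 61.1 CPM in PNO and 74.3, 74.3, 73.4 and 77.7 CPM in saline, with no overlap (log2 fold change -0.37, SE 0.17, adjusted p = 0.448). In IUO over saline 3 of 5 chaperones were negative with a median of -0.021, and Pomp was 108 CPM in IUO 4, against 53.3, 59.7 and 74.1 CPM in IUO 1 to 3. In IUO over PNO all 5 were positive with a median of 0.35 and 0 called. The smallest p among them was that of Psmg3, another chaperone of the alpha ring, with 19.2, 30.3, 31.4 and 45.4 CPM in IUO and 20.9, 17.9, 22.4 and 21.3 CPM in PNO (log2 fold change 0.61, SE 0.23, adjusted p = 0.714).

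The inducible beta subunits, which replace the catalytic ones in the immunoproteasome, had 0 of 3 called and 3 of 3 negative in PNO over saline, with a median of -0.61. Psmb8, which takes the place of Psmb5, measured 3.20, 2.38, 2.30 and 1.93 CPM in PNO and 3.56, 4.42, 3.90 and 4.55 CPM in saline, without overlap (log2 fold change -0.74, SE 0.22, adjusted p = 0.333). Per length it was far below its constitutive counterpart, at 2.20 FPKM against 97.4 FPKM for Psmb5 over all libraries. Psmb9, which replaces Psmb6, was at 0.861 FPKM against 67.0 FPKM, and Psmb10, which replaces Psmb7, at 6.28 FPKM against 136 FPKM. In IUO over saline the median of the 3 was -0.18 with 0 called, and in IUO over PNO it was 0.40 with 0 called, with Psmb8 at 2.61, 3.01, 4.70 and 4.18 CPM in IUO (log2 fold change over PNO 0.56, SE 0.22, adjusted p = 0.714). Microglia, which express these genes, had a mean marker log2 CPM of 4.73 to 4.84 in PNO, 4.74 to 5.27 in IUO and 4.88 to 5.30 in saline. All 6 microglial markers were measured and their mean in PNO lay below the saline range, while the single markers other than C1qa overlapped. The part of microglia in these values was not tested.

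The activators, the inhibitor and other bound factors had 0 of 14 called in each comparison, with 10 negative in PNO over saline (median -0.15), 8 negative in IUO over saline (median -0.030) and 2 negative in IUO over PNO (median 0.13). Akirin2, which brings proteasomes into the nucleus, was among the 3 smallest p values of these lists in IUO over saline, at 55.6 ± 5.83 CPM in IUO and 62.0 ± 3.64 CPM in saline (adjusted p = 0.998). It was as low in PNO, at 55.6 ± 2.97 CPM and there without overlap with saline (log2 fold change -0.16, SE 0.086, adjusted p = 0.518). Psme1 (log2 fold change -0.33, adjusted p = 0.46) and Psme2 (-0.34, adjusted p = 0.441) did not overlap in PNO over saline either, and the rest of this list did. Of the 8 tested genes around the activator NRF1, 0 were called in PNO over saline, with 4 negative and a median of -0.023, and 0 in IUO over saline, with 7 negative and a median of -0.10. Nfe2l1 itself measured 246, 285, 288 and 284 CPM in PNO, 290, 273, 256 and 231 CPM in IUO and 245, 254, 268 and 309 CPM in saline, all overlapping. Its log2 fold change was 0.036 in PNO over saline (SE 0.096, adjusted p = 0.917) and -0.035 in IUO over saline (SE 0.096, adjusted p = 0.998). Mafg, a small Maf partner of NRF1, measured 80.9 ± 4.19 CPM in IUO and 90.5 ± 11.6 CPM in saline (adjusted p = 0.998). Ddi2, the protease that releases NRF1, measured 12.8 ± 2.42 CPM in IUO and 15.8 ± 1.89 CPM in PNO (adjusted p = 0.714), and 5 of the 8 genes were negative in IUO over PNO with a median of -0.051. Ubiquitin genes, ubiquitin-activating enzymes and shuttle factors, which work upstream of the particle, had 0 of 15 called in each comparison, with 8 negative and a median of -0.000185 in PNO over saline, 9 negative and -0.014 in IUO over saline, and 10 negative and -0.027 in IUO over PNO. Sqstm1, the autophagy receptor p62, had the smallest p of all these lists in IUO over saline, at 578 ± 41.9 CPM in IUO and 650 ± 58.6 CPM in saline (adjusted p = 0.998).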

How the data were processed

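The deposited table holds whole-number counts per gene and library and FPKM, per the file headers. The authors used HISAT2 and StringTie, per the submitters' processing notes; their versions and settings, the annotation and the genome build are not stated in the labels or headers. Every per-sample column was matched to a label. Genes with a mean of at least 0.5 FPKM over 12 libraries (14170 of 22431) were tested on counts with edgeR's quasi-likelihood test, TMM scaling and 1 model with 3 groups, two-sided, and p values were adjusted by Benjamini-Hochberg over all genes of a comparison. CPM uses TMM-scaled library sizes, and log2 CPM a prior count of 2. The script was first tested on simulated counts. Alternatives were other scalings and filters, DESeq2, limma on log2(FPKM + a pseudocount of 0.1, 0.5 or 1), sample weights, a replicate block, a length trend, marker covariates and left-out libraries; leaving out libraries with raised striatal or bulb markers was added after seeing the data. The members, the gene lists and the motifs were chosen with earlier results of these data known. In each comparison the rule named members past the threshold or else the 8 with the smallest p, the catalytic subunits Psmb5, Psmb6 and Psmb7, Psmd14, Psmd4, Psmd1, Psmd2, the 2 highest and 2 lowest members in FPKM, and the 3 genes of the pathway lists with the smallest p; other genes were named after their values were seen. Psmd9, Psmb11 and Paaf1 were not analysed here. A row described as proteasome 26S subunit, non-ATPase 10 had 943 to 1370 counts and a mean of 11.85 FPKM. Its name in the table lies outside the rule, so it was not analysed either. The fits used edgeR 4.0.16, DESeq2 1.42.0 and limma 3.58.1 under R 4.3.3; figures were drawn with matplotlib 3.10.9 under Python 3.11.15.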

Additional observations from a re-analysis of the deposited data

Results flagged for a closer look

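In 6 of 111 groups of 4 libraries examined (members and their means in each of the 3 groups), 1 library lay far from the other 3, with a gap to its nearest neighbour, as a share of the group's whole range, above Dixon's 95% critical value. Chance alone gives about 5% of groups. Psmd12 was flagged in both exposed groups: PNO 1 (94.8 CPM) was high among the PNO libraries (gap of 0.939 of the range) and IUO 4 (114 CPM) among the IUO libraries (0.862). Psmd3 in IUO 4 (213 CPM) was high among the IUO libraries (0.86). In saline, Psma7 was high in saline 2 (141 CPM, 0.834), Psmd14 was high in saline 3 (63.9 CPM, 0.902) and Psmc6 was low in saline 4 (72.8 CPM, 0.842).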

How the results depend on the processing

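No member was called under any alternative in any comparison. A single member counted as reversed only where its sign differed and both values exceeded their SE. That held for Psmc3, PNO minus saline, with striatal and bulb scores as covariates (log2 fold change 0.154), 1 of 1428 values over 24 named members. Another sign was held by 79 values. The rule passes over a change to a value within its SE, so it seldom counts a reversal. In that fit Psma6 went from -0.266 to 0.0772 and Psmb7 from -0.229 to 0.0575, and neither counted. The cause of each change was not tested. In PNO over saline the genes called over the whole table numbered 0 with edgeR, 11 with only the compared groups, 119 with DESeq2, 1 with limma on log2 FPKM at each pseudocount, 32 with sample weights, 1 with the covariates, 3 without libraries with raised bulb markers (which leaves PNO 2 alone, its spread taken from the other groups), and 0 to 19 with 1 library left out. The members' median was 0.0111 with the covariates, with 14 negative. In IUO over saline 11 genes were called with DESeq2, 1 with the covariates, 4 without libraries with raised striatal markers, 1 without those with raised bulb markers and 0 to 1 with 1 library left out. There 9 members were negative with the covariates and 10 without the striatal libraries (median 0.126), and 12 to 32 with 1 library left out; with sample weights 31 were negative (median -0.131). In IUO over PNO 8 genes were called with DESeq2, 3 without either set of raised libraries and 0 to 1 with 1 library left out; 2 members were negative without the striatal libraries and 1 to 11 with 1 library left out. The labels do not say that a replicate number marks shared origin, so the numbers were not used as pairs. The 12 same-numbered pairs had correlations of 0.0153 to 0.411, 4 of them over 0.1, and 8 of 12 libraries correlated best with their own number. Pairs of unlike number ran from -0.302 to 0.203. Striatal markers were raised in PNO 2, IUO 2 and saline 2, and also in IUO 1. Whether same-numbered libraries share an origin was not tested. With the replicate block the members' medians were -0.161, -0.0407 and 0.108 for PNO over saline, IUO over saline and IUO over PNO, with 0 members and 0 genes called. Psma8, with 20 counts in all libraries together, fell under the filter of the main fit. Every other member had 1154 or more counts in each library.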
